A study of Rattus norvegicus with 9 samples.

Results

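Endometrial RNA of rats given hydroxyurea and adrenaline before mating (the group labelled LER) was compared with that of rats given saline (the group labelled NER). The comparison rests on 3 libraries per group, 6 of the 9 libraries of the series, and on every gene that passed a count filter, 14232 of the 22250 gene rows. All rats were Sprague-Dawley females, 10 weeks old, and no genetic change is labelled in either group. LER rats took hydroxyurea by gavage at 450 mg/kg per day for 10 days and adrenaline under the skin at 0.3 mg/kg per day from day 4 to day 10. NER rats took saline by both routes on the same days. Both groups were then mated with males and given olive oil by gavage from day 0.5 of gestation, counted from the vaginal plug. The model therefore combines a pair of drugs, and no LER library shows the effect of either drug alone. The sources used here do not give the day on which the uterus was taken. The meaning of the group abbreviations was not used, only the treatments. Nothing in the labels says that the 3 libraries of a group came from separate animals, and the p-values cover the spread among libraries alone.

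Hydroxyurea inactivates ribonucleotide reductase, the enzyme that makes deoxynucleotides from ribonucleotides, and so stalls replication forks in dividing cells. Stalled forks activate the ATR and CHK1 kinases and, with damage, p53 and its targets. Adrenaline acts on alpha and beta adrenergic receptors. Beta receptors raise cyclic AMP, which activates the transcription factor CREB and immediate early genes, and alpha receptors contract vessels and uterine muscle. In the uterus, oestrogen drives growth of the epithelium and progesterone then prepares it and the stroma for embryo attachment.

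Genes whose libraries separated the groups were spread over many functions, and most differed by small folds. Lpar3, a lysophosphatidic acid receptor needed for implantation spacing in the mouse, Trib3, a pseudokinase of the stress response, and the growth factor Igf2 were higher in each LER library than in each NER library. Il1b, the inflammatory cytokine interleukin 1 beta, Ncr1, the natural killer cell receptor NKp46, and Samhd1, the enzyme that breaks down deoxynucleotides, were lower in each LER library. None of these passed correction. At an adjusted p under 0.05 (edgeR quasi-likelihood test, Benjamini-Hochberg), 0 of 14232 genes were called (0%), and the smallest adjusted p was 1.00. At an unadjusted p under 0.05 there were 124 genes (0.871%), 39 higher and 85 lower. Evenly spread p-values would give 711.6 genes at that threshold. The p-values were therefore not evenly spread, and the reason for the shortfall was not tested. An unadjusted p under 0.05 does not by itself mark a gene as different. DESeq2 called 2 of 14142 genes (0.0141%), Tmprss11b and Prss32, a pair of serine protease genes. Tmprss11b had 0 CPM in all 3 LER libraries, against 0, 0 and 20.1 CPM in NER libraries 1, 2 and 3. Prss32 had 0 CPM in all 3 LER libraries, against 0, 0 and 19.3 CPM. CPM are counts relative to a TMM-scaled library total, and a count of 0 allows up to 0.190 to 0.217 CPM, or 3 counts, in these 6 libraries, for counting error only. Both calls rested on NER replicate 3.

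NER replicate 3 stood apart from the other 5 libraries. Total counts were close, 13518635 to 14196461 in LER and 14278402 to 15354085 in NER. On the first principal component, which held 62.2% of the variance of the 6 libraries, the LER libraries lay at -21.5, -20.7 and -22.0, against -25.4, -21.7 and 111.3 for the NER libraries. Across genes, log2 CPM of NER replicate 3 correlated with the other 5 at 0.879 to 0.887, and those 5 with each other at 0.963 to 0.977, as a description over genes that share libraries. Summed epithelium markers were 1600.1, 1557 and 944 CPM in LER, against 799.6, 1140.1 and 4193 CPM in NER. Complement C3, an oestrogen-responsive secretory product of uterine epithelium, had 18.5, 8.64 and 12.8 CPM in LER, against 14.1, 25.4 and 4350.1 CPM in NER. In a tissue extract, fewer cells of a type and less RNA per cell cannot be told apart. LER replicate 1 differed in another way. Summed adipocyte markers were 1281, 96.2 and 101 CPM in LER, against 136, 94.2 and 69.4 CPM in NER, and summed erythroid genes were 2180.3, 421 and 504 CPM in LER, against 538, 152 and 533 CPM in NER. Summed smooth muscle markers were high throughout, 17976, 24400.0 and 21915 CPM in LER, against 20965, 20093 and 24707 CPM in NER, so the tissue labelled endometrium held muscle transcripts in both groups, while summed endometrial stroma markers were 36056, 28535 and 43394 CPM in LER, against 39945, 40613 and 33478 CPM in NER. Results that rest on NER replicate 3 are given with and without it, and without LER replicate 1 where that library carried it.

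NER replicate 3 set most of the large folds in the lower direction. Among 12739 genes with a mean of at least 2 CPM over the 6 libraries, 551 had a log2 fold change of at least 1 in size, 115 higher and 436 lower in LER. Without NER replicate 3 there were 155, 116 higher and 39 lower, and without LER replicate 1 there were 571, 85 higher and 486 lower. With 3 libraries per group, values can separate without any difference between treatments, so non-overlap is a description here and not a test. The groups did not overlap at 869 of the 12739 genes (6.82%), 447 higher (3.51%) and 422 lower in LER (3.31%). For most of these genes the shift was small. The median log2 fold change was 0.42 over the 447 and -0.33 over the 422, and it was 0.36 and -0.27 without NER replicate 3. NER replicate 3 was the NER library farthest from LER at 261 of the 447 genes (58.4%) and 256 of the 422 (60.7%). The median within-group SD of log2 CPM was 0.215 in LER and 0.349 in NER, over 3 libraries each. Over 2 libraries each, it was 0.159 in LER without replicate 1 and 0.219 in NER without replicate 3.

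**Figure D1:**
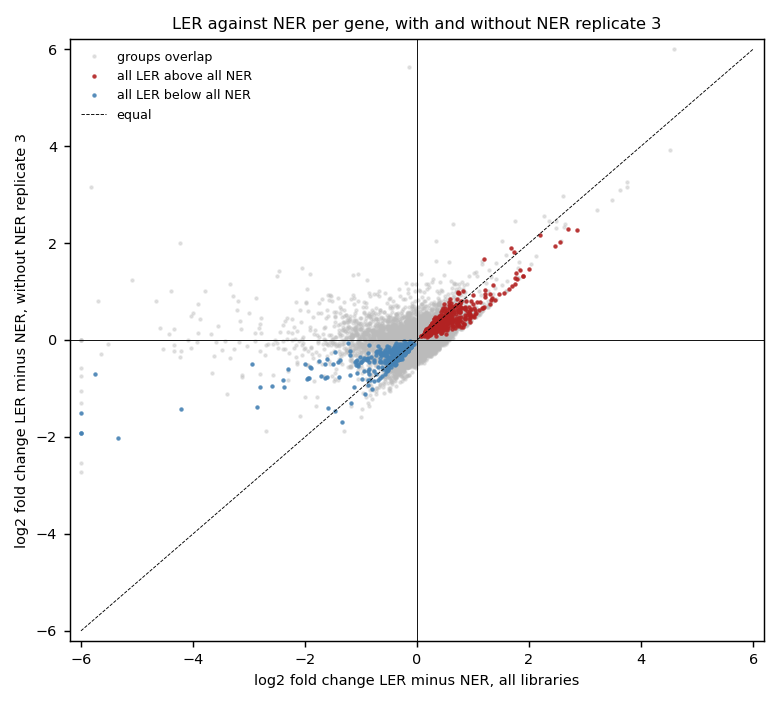
Log2 fold change of LER over NER for each gene with a mean of at least 2 CPM, with all 3 NER libraries (horizontal axis) and without NER replicate 3 (vertical axis). Of 436 genes at -1 or below with all libraries, most lie near 0 on the vertical axis, where 39 genes reach -1.

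Genes of deoxynucleotide supply and DNA replication, the processes that hydroxyurea acts on, showed no shared shift between the groups. Of 28 tested genes of ribonucleotide reductase and nucleotide supply, 17 had a higher and 11 a lower mean in LER, with 0 called in either direction. Their median log2 fold change was 0.08, against -0.02 over all 14232 genes. The reductase subunits overlapped between groups. The log2 fold change of LER over NER with its SE follows in parentheses here and for later genes, with the value without NER replicate 3 second where it is given. The SE draws on the spread within groups over all 9 libraries, and not only over the 6 shown. Rrm1, the large subunit with the catalytic site, had 85.7, 81.5 and 94.4 CPM in LER, against 110.4, 109 and 59.8 CPM in NER (log2 fold change -0.09 ± 0.29, SE). Rrm2, the small subunit whose radical hydroxyurea quenches, had 11.3, 10.4 and 25.1 CPM in LER, against 19.8, 20.6 and 7.39 CPM in NER (-0.03 ± 0.74). Both genes were lowest in NER replicate 3, and without it their log2 fold changes were -0.33 and -0.37. Rrm2b, the small subunit that p53 induces, had 6.38, 7.43 and 6.54 CPM in LER, against 7.6, 4.31 and 9.12 CPM in NER (-0.05 ± 0.73), so its groups overlapped.

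Samhd1 was the 1 member of the 28 in the nucleotide list whose groups did not overlap, a share under the 6.82% of all genes. It encodes a phosphohydrolase that degrades deoxynucleotides and acts at stalled replication forks. It had 34.5, 28.1 and 33.6 CPM in LER, against 37, 63.1 and 64.7 CPM in NER, so the highest LER library lay just under the lowest NER library. The log2 fold change was -0.78 ± 0.33 (SE, unadjusted p = 0.0441), and it was -0.64 without NER replicate 3. For Pnp, purine nucleoside phosphorylase of purine salvage, NER replicate 3 was far above the other 5 libraries. Pnp had 107, 116 and 146 CPM in LER, against 146, 139 and 451 CPM in NER (-0.998 ± 0.49, and -0.21 without NER replicate 3).

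Promoters of the replication genes are shown because E2F factors, which switch on these genes at the start of S phase, bind the letters TTTNGCGC. The 250 bases upstream of each start in RefSeq (build GRCr8) were searched on both strands, and overlapping matches were merged. The letters were present in 6 of 25 promoters of S phase genes (24%), against 192 of 10708 promoters of tested genes (1.79%) and 306 of 27457 promoters in the table (1.11%). A match is a description of the letters and not a bound site. A stretch is given 5′ to 3′ on the gene's strand for 4 subunits of the MCM helicase, which unwinds DNA at the fork, with the matched letters in capitals. The stretches are chr4:122918095-122918138 (minus strand) for Mcm2, chr19:13488570-13488641 (plus strand) for Mcm5, chr13:42404450-42404521 (minus strand) for Mcm6 and chr12:22163193-22163260 (minus strand) for Mcm7.
Mcm2: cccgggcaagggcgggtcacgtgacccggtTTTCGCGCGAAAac
Mcm5: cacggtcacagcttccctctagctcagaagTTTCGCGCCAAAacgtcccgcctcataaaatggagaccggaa
Mcm6: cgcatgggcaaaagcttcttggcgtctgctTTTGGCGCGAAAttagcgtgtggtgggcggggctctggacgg
Mcm7: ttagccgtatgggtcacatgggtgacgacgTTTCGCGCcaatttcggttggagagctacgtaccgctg

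The 4 MCM genes with these letters did not separate the groups. Mcm2 had 112, 104 and 88 CPM in LER, against 98.6, 118 and 47.6 CPM in NER, and Mcm5 had 61.6, 49.6 and 39 CPM in LER, against 54.9, 64.9 and 25.3 CPM in NER. Mcm6 had 93.6, 72.5 and 66.9 CPM in LER, against 89.1, 105 and 39.4 CPM in NER, and Mcm7 had 103, 89.3 and 95.5 CPM in LER, against 83.5, 104 and 39.8 CPM in NER. All 4 were lowest in NER replicate 3, and the other NER libraries lay within or close to the LER range. Their log2 fold changes were 0.20, 0.05, -0.01 and 0.34, and without NER replicate 3 they were -0.10, -0.26, -0.33 and 0.04. Pcna, the sliding clamp of DNA polymerase, was also lowest in NER replicate 3, with 142, 121 and 128 CPM in LER, against 173, 159 and 68.3 CPM in NER (-0.04 ± 0.49, and -0.36 without that library). Its other NER libraries lay above every LER library. Of these genes, Mcm2, Mcm5 and Mcm6 were chosen after their values were seen, for their promoters.

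Cdc6, which loads the MCM helicase at origins, was the 1 of 30 S phase genes whose groups did not overlap, a share under the 6.82% of all genes. It had 9.57, 7.77 and 8.39 CPM in LER, against 11.3, 13.9 and 16.4 CPM in NER, with each LER library below each NER library. The log2 fold change was -0.69 ± 0.30 (unadjusted p = 0.0432), and it was -0.55 without NER replicate 3, the highest of the 6 for this gene although the lowest for Pcna and the MCM genes. Over all 30 tested S phase genes the median log2 fold change was 0.00, with 16 higher and 14 lower and 0 called. Without NER replicate 3 it was -0.30, against 0.01 over all genes. Relative to the mean of the 6 libraries, the median S phase gene stood at 0.21, -0.07 and 0.04 log2 units in LER, against 0.26, 0.42 and -0.86 in NER. The direction of the S phase list therefore depended on NER replicate 3.

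Mitotic genes differed as much within LER as between the groups. The 19 tested genes summed to 283, 262 and 624 CPM in LER, against 529.7, 516 and 199 CPM in NER, so LER replicate 3 was the highest library and NER replicate 3 the lowest. Their median log2 fold change was -0.13, and -0.42 without NER replicate 3, with 0 called. Aurka, the Aurora A kinase of the spindle poles, had 9.57, 8.71 and 14.7 CPM in LER, against 13.7, 16.5 and 10.6 CPM in NER (-0.30 ± 0.37).

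**Figure D2:**
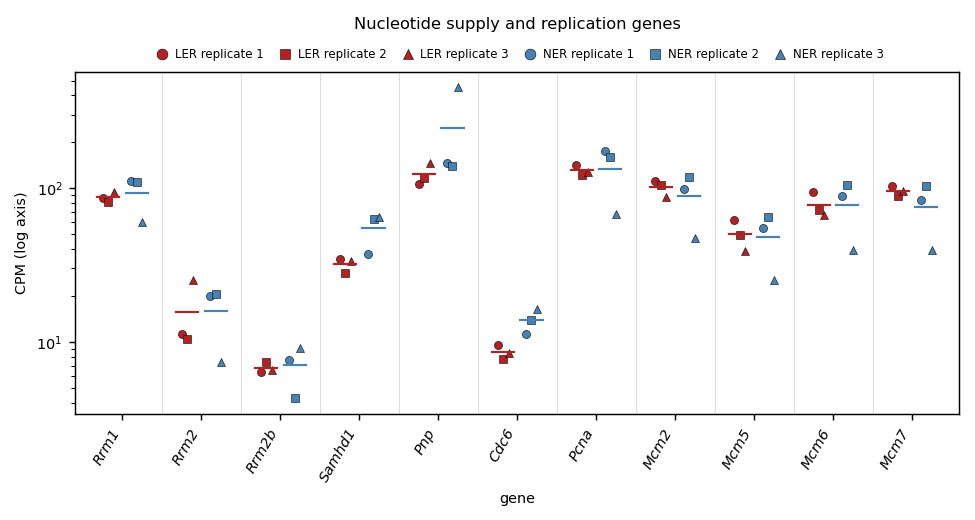
CPM on a log axis for genes of nucleotide supply and replication, 1 point per library, LER left of NER, with the mean of each group. Samhd1 and Cdc6 are the genes in the plot whose groups do not overlap, and NER replicate 3 is the lowest library for Rrm1, Rrm2, Pcna and the MCM genes.

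Targets of p53 and checkpoint genes did not stand higher in LER. Of 30 tested genes, 12 were higher and 18 lower, with 0 called. Of the 29 with a mean of at least 2 CPM, 0 had groups that did not overlap, against 6.82% of all genes. The median log2 fold change was -0.05, and -0.04 without NER replicate 3. Cdkn1a, the p21 inhibitor of cyclin-dependent kinases and a leading p53 target, had 12.9, 11.6 and 15.7 CPM in LER, against 8.29, 16.3 and 63.5 CPM in NER. Its 3 LER libraries lay between NER replicates 1 and 2, and the log2 fold change of -1.13 ± 0.66 was 0.13 without NER replicate 3. Aen, a p53-induced nuclease of apoptosis, had 35.9, 39.7 and 20.8 CPM in LER, against 24.5, 26.7 and 16.5 CPM in NER (0.51 ± 0.31). Sesn2, a stress-induced inhibitor of mTORC1, had 70.5, 70.9 and 64 CPM in LER, against 47, 73.4 and 35 CPM in NER (0.40 ± 0.28), again with overlap.

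No adrenergic receptor was called between the groups. Levels between receptors were compared as FPKM, fragments scaled to gene length and library size, as the authors deposited them. The alpha 2A receptor Adra2a averaged 12.8 ± 1.67 FPKM in LER and 10.0 ± 6.65 FPKM in NER (SD, n = 3 each), with 1 low library in NER, replicate 3. Lower averages were found for the alpha 1A receptor Adra1a at 4.1 ± 0.773 FPKM in LER and 3.29 ± 1.46 FPKM in NER, the alpha 1D receptor Adra1d at 3.29 ± 1.47 FPKM in LER and 4.37 ± 1.73 FPKM in NER, and the beta 1 receptor Adrb1 at 2.47 ± 0.508 FPKM in LER and 1.21 ± 0.68 FPKM in NER. Among Adra1a, Adra1d and Adrb1, neighbours in the order of each group overlapped, and Adra2a lay above all 3 without overlap in LER only. Adra2b, below all of these, stood at 0.315 ± 0.145 FPKM in LER and 0.288 ± 0.0763 FPKM in NER, and Adra1b, Adra2c and Adrb3 did not pass the count filter. The beta 3 receptor Adrb3, known from fat, had 3.54, 0 and 0 FPKM in LER, against 0.452, 0 and 0 FPKM in NER, and the LER library that held it was the one with the adipocyte transcripts.

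Over groups, Adrb1 had the largest fold of the tested receptors but overlapped. It had 4.07, 2.68 and 3.2 CPM in LER, against 1.17, 2.72 and 1.16 CPM in NER, where replicate 2 lay just above the lowest LER library. As FPKM, without TMM scaling, the same 2 libraries stood in the opposite order by a like margin, 2.01 FPKM in LER, against 2.00 FPKM in NER. The log2 fold change was 0.97 ± 0.70 (unadjusted p = 0.197), and 0.76 without NER replicate 3. Adra2a had 34.4, 38.4 and 29.9 CPM in LER, against 34.5, 40.9 and 7.17 CPM in NER (0.31 ± 0.69), and its low value was in NER replicate 3. Adra1d had 8.56, 13.7 and 5.62 CPM in LER, against 8.71, 10.9 and 19.3 CPM in NER (-0.48 ± 0.60), and Adra1a had 6.52, 7.97 and 9.53 CPM in LER, against 8.08, 8.43 and 3.4 CPM in NER (0.27 ± 0.55), both overlapping. Grk5, a kinase that desensitizes adrenergic receptors, was the 1 gene, of 16 with a mean of at least 2 CPM, whose groups did not overlap, against 6.82% of all genes, so the share was near that background. It had 18.9, 13.9 and 19 CPM in LER, against 22.4, 21.1 and 25.8 CPM in NER (-0.42 ± 0.26, unadjusted p = 0.148), and -0.33 without NER replicate 3. Of 18 tested genes of adrenergic signalling and catecholamine handling, 9 were higher and 9 lower in LER, 0 were called, and the median log2 fold change was -0.02.

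**Figure D3:**
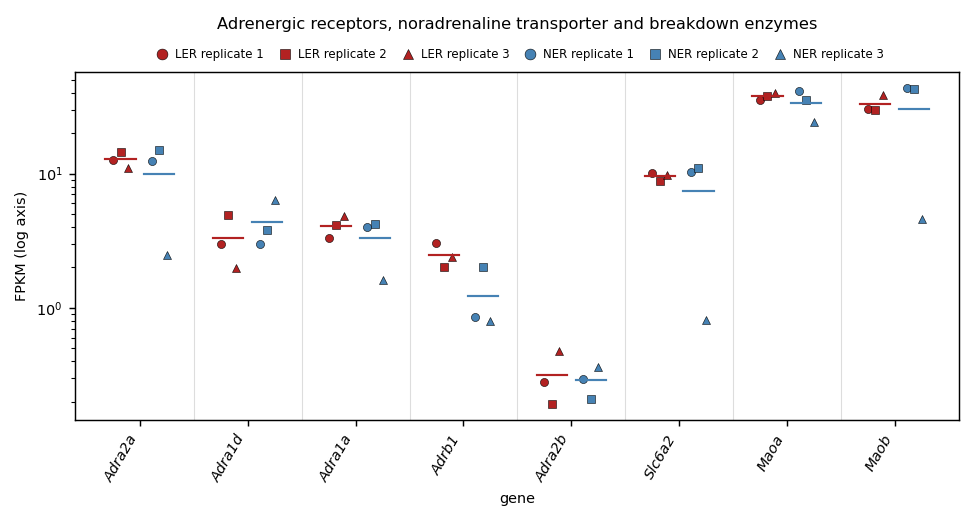
FPKM on a log axis for adrenergic receptors and genes of catecholamine uptake and breakdown, 1 point per library, LER left of NER. Adra2a, Slc6a2 and Maob each have 1 low NER library, replicate 3, and the groups overlap at every plotted receptor but Adrb1, where the closest libraries are 2.01 FPKM in LER and 2.00 FPKM in NER.

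Maoa, Maob and Slc6a2, which clear catecholamines, overlapped between the groups. The monoamine oxidase Maoa averaged 37.7 ± 2.38 FPKM in LER and 33.5 ± 8.69 FPKM in NER. The noradrenaline transporter Slc6a2, named after its values were seen, had 92.8, 80.0 and 88.8 CPM in LER, against 96.8, 101 and 7.96 CPM in NER, and Maob, the other monoamine oxidase, had 73.5, 70.4 and 93.4 CPM in LER, against 108, 105 and 11.9 CPM in NER. In both, NER replicate 3 was far below the other 5 libraries. Without it the log2 fold change of Maob was -0.43, with each LER library below both remaining NER libraries, and that of Slc6a2 was -0.19. Th, tyrosine hydroxylase, the first enzyme of catecholamine synthesis, was listed at 0 in all 6 libraries.

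Targets of cyclic AMP and CREB and the immediate early genes were spread over both groups. Of 27 tested cyclic AMP and CREB targets, 15 were higher and 12 lower. Their median log2 fold change was 0.00, and -0.12 without NER replicate 3. Of 25 immediate early genes, 15 were higher and 10 lower, with a median of 0.07, and 0 genes of either list were called. CREB binds the cyclic AMP response element, TGACGTCA, which reads the same on both strands. It was present in 2 of 21 promoters of the cyclic AMP list (9.52%), against 292 of 10708 promoters of tested genes (2.73%) and 466 of 27457 in the table (1.7%). Both stretches are shown from RefSeq (GRCr8, plus strand, element in capitals), chr10:17184699-17184766 for Dusp1 and chr14:63634097-63634164 for Ppargc1a.
Dusp1: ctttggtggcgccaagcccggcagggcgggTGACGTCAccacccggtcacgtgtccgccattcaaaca
Ppargc1a: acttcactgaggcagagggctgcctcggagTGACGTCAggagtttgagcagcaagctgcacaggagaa

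Neither gene with the element separated the groups, and both were chosen after their values were seen, for their promoters. Dusp1, a phosphatase that switches off MAP kinases, had 56.7, 50.8 and 36.6 CPM in LER, against 68.6, 35.7 and 50.0 CPM in NER (-0.10 ± 0.32). Ppargc1a, a coactivator of mitochondrial genes, had 3.26, 6.29 and 3.77 CPM in LER, against 6.7, 3.36 and 1.09 CPM in NER (0.26 ± 0.72). The transcription factor Fosl1 was the 1 of 25 immediate early genes without overlap, against 6.82% of all genes, with 11.4, 13.9 and 11.9 CPM in LER, against 10.1, 10.3 and 6.81 CPM in NER (0.45 ± 0.29, and 0.28 without NER replicate 3). Other early genes overlapped. Egr1, a zinc finger factor, had 94, 113 and 70.6 CPM in LER, against 95.4, 83.5 and 38.1 CPM in NER, and Fos, a subunit of AP-1, had 44.9, 50.2 and 24 CPM in LER, against 53.9, 26.2 and 93 CPM in NER. Per1, a clock gene that cyclic AMP induces, had 66.6, 74.2 and 54.3 CPM in LER, against 53.8, 59.8 and 35.8 CPM in NER (0.39 ± 0.28). Bdnf, a neurotrophin and CREB target, lay under the mean of 2 CPM, with 0.815, 1 and 0.853 CPM in LER, against 1.31, 1.77 and 4.34 CPM in NER (-1.46 ± 0.77).

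Trib3 had the largest fold of the heat shock and unfolded protein genes. Trib3, which the unfolded protein and amino acid responses induce through ATF4 and CHOP, had 9.91, 9.91 and 2.77 CPM in LER, against 1.87, 1.46 and 1.59 CPM in NER. LER replicates 1 and 2 were high, replicate 3 was closer to NER, and the groups did not overlap. The log2 fold change was 2.20 ± 0.81 (unadjusted p = 0.0235), 2.17 without NER replicate 3 and 1.95 without LER replicate 1. The other tested genes of heat shock and the unfolded protein response all overlapped, and the median of the 26 was -0.01. Of 23 glucocorticoid targets, 12 were higher and 11 lower, with a median of 0.01. Among them Fkbp5, a cochaperone of steroid receptors, overlapped, with 85.7, 57 and 75.5 CPM in LER, against 61.9, 89 and 32.9 CPM in NER. Sgk1, a kinase of ion transport, did not overlap at a small fold, with 55.2, 53.4 and 51 CPM in LER, against 62.7, 65.5 and 56.8 CPM in NER (-0.21 ± 0.17). Targets of NRF2, the regulator of antioxidant genes, had a median of -0.13 over 24 genes, and 0.10 without NER replicate 3, with the opposite sign. Gpx1, glutathione peroxidase, had 404, 416 and 414 CPM in LER, against 494, 482 and 987 CPM in NER (-0.67 ± 0.34, and -0.25 without NER replicate 3), without overlap, and Hmox1, haem oxygenase, had 55.5, 48.4 and 23.3 CPM in LER, against 31.2, 21.8 and 32.3 CPM in NER (0.58 ± 0.58), with overlap.

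The 12 genes with the smallest unadjusted p among those higher in LER without overlap held receptors, matrix proteins and enzymes. Nxpe5 had 42.5, 29.6 and 14.6 CPM in LER, against 10.1, 6.4 and 9.7 CPM in NER, with LER replicate 1 highest (1.73 ± 0.44, unadjusted p = 0.00331, and 1.81 without NER replicate 3). Gpr27, an orphan receptor coupled to G proteins, had 4.07, 19 and 11.4 CPM in LER, against 2.83, 1.84 and 0.652 CPM in NER (2.69 ± 0.73, unadjusted p = 0.00486). It varied several-fold within each group, and its fold was 2.30 on the log2 scale without NER replicate 3. Matn4, the matrix protein matrilin 4, had 21.8, 17.9 and 15 CPM in LER, against 7.53, 10.2 and 5.87 CPM in NER (1.21 ± 0.38, and 1.04 without NER replicate 3). Alox12, a 12-lipoxygenase that oxidizes arachidonic acid, had 84.2, 139.6 and 65.9 CPM in LER, against 39.2, 31.2 and 10.8 CPM in NER. NER replicate 3 was its lowest library, and the log2 fold change of 1.83 ± 0.68 was 1.45 without it.

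Lpar3 belonged to the same 12. It had 38.3, 48.5 and 23.9 CPM in LER, against 15.3, 23 and 6.3 CPM in NER, so LER replicate 3 lay just above NER replicate 2. The log2 fold change was 1.31 ± 0.51 (unadjusted p = 0.0293), and 0.94 without NER replicate 3, its lowest library. Rarres1, a retinoic acid responsive membrane protein, had 382, 476 and 222 CPM in LER, against 206, 219 and 207 CPM in NER, where the 3 libraries were close and the third LER library only slightly above them (0.77 ± 0.30). Adamts15, a metalloproteinase that cleaves the proteoglycan versican, had 99.1, 83.6 and 81.1 CPM in LER, against 65.7, 65.5 and 62.5 CPM in NER (0.45 ± 0.18, and 0.42 without NER replicate 3). Fndc1, a protein with fibronectin type III repeats, had 26.8, 23.7 and 19.6 CPM in LER, against 14, 15 and 7.82 CPM in NER (0.93 ± 0.38). The remaining genes were Apbb3, an adaptor that binds amyloid precursor protein (0.75 ± 0.26), Klhl35 (1.35 ± 0.50), Rbpjl, a relative of the Notch effector RBPJ (0.99 ± 0.40), and Trib3.

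The 12 genes with the smallest unadjusted p among those lower in LER without overlap depended on NER replicate 3 to different degrees. Some were carried by that library, and others, such as Map2k3 and Ogdhl, changed little without it. Map2k3, the kinase that activates p38, had 2.17, 4.62 and 1.56 CPM in LER, against 8.43, 6.4 and 10.5 CPM in NER (-1.59 ± 0.46, unadjusted p = 0.00695, and -1.41 without NER replicate 3). Ogdhl, a relative of the 2-oxoglutarate dehydrogenase subunit of the mitochondrial tricarboxylic acid cycle, had 19.1, 21.6 and 22.3 CPM in LER, against 29, 34.7 and 32.9 CPM in NER. The 3 libraries of each group were close for Ogdhl, and its log2 fold change of -0.61 ± 0.22 was -0.60 without NER replicate 3. Il1b had 5.3, 4.75 and 5.76 CPM in LER, against 9.4, 7.1 and 14.2 CPM in NER (-0.96 ± 0.33, and -0.65 without NER replicate 3). Sdc1, the epithelial heparan sulphate proteoglycan syndecan 1, had 118, 111 and 108 CPM in LER, against 133, 174 and 228 CPM in NER (-0.67 ± 0.23, and -0.45). RT1-A1, a class I histocompatibility chain, had 5.98, 6.9 and 4.55 CPM in LER, against 8.64, 10.5 and 21 CPM in NER (-1.20 ± 0.42, and -0.72). Near-identical copies of RT1 genes can share reads, so that value is uncertain.

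Another 6 genes had most of their counts in NER replicate 3. S100g, the calcium-binding protein calbindin-D9k that oestrogen induces in rat uterus, had 5.36, 2.48 and 3.63 CPM in LER, against 7.95, 13.9 and 759 CPM in NER (-6.09 ± 2.15, and -1.52 without NER replicate 3). NER replicates 1 and 2 also lay above all LER libraries, by far less. Olfm4, a secreted glycoprotein of epithelial crypts, had 0.339, 0.067 and 0.284 CPM in LER, against 1.04, 0.76 and 57.1 CPM in NER. Slc9a4, a sodium and proton exchanger, had 0.136, 0.134 and 0.0711 CPM in LER, against 0.276, 0.697 and 14 CPM in NER. In LER the levels of Olfm4 and Slc9a4 lay at or near the 3-count limit, so no fold is given for them. Cst7, the cysteine protease inhibitor cystatin F of immune cells, had 3.12, 2.14 and 3.77 CPM in LER, against 4.56, 3.93 and 27.8 CPM in NER (-2.002 ± 0.74, and -0.50 without NER replicate 3). Syt6, a synaptotagmin, had 0.407, 0.201 and 0.498 CPM in LER, against 1.38, 0.634 and 19 CPM in NER. Pde4c, a phosphodiesterase that breaks down cyclic AMP, had 1.77, 0.67 and 1.42 CPM in LER, against 1.87, 4.88 and 21.3 CPM in NER. Of 10 higher and 9 lower genes with a promoter in RefSeq, 0 held either of the motifs searched above.

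**Figure D4:**
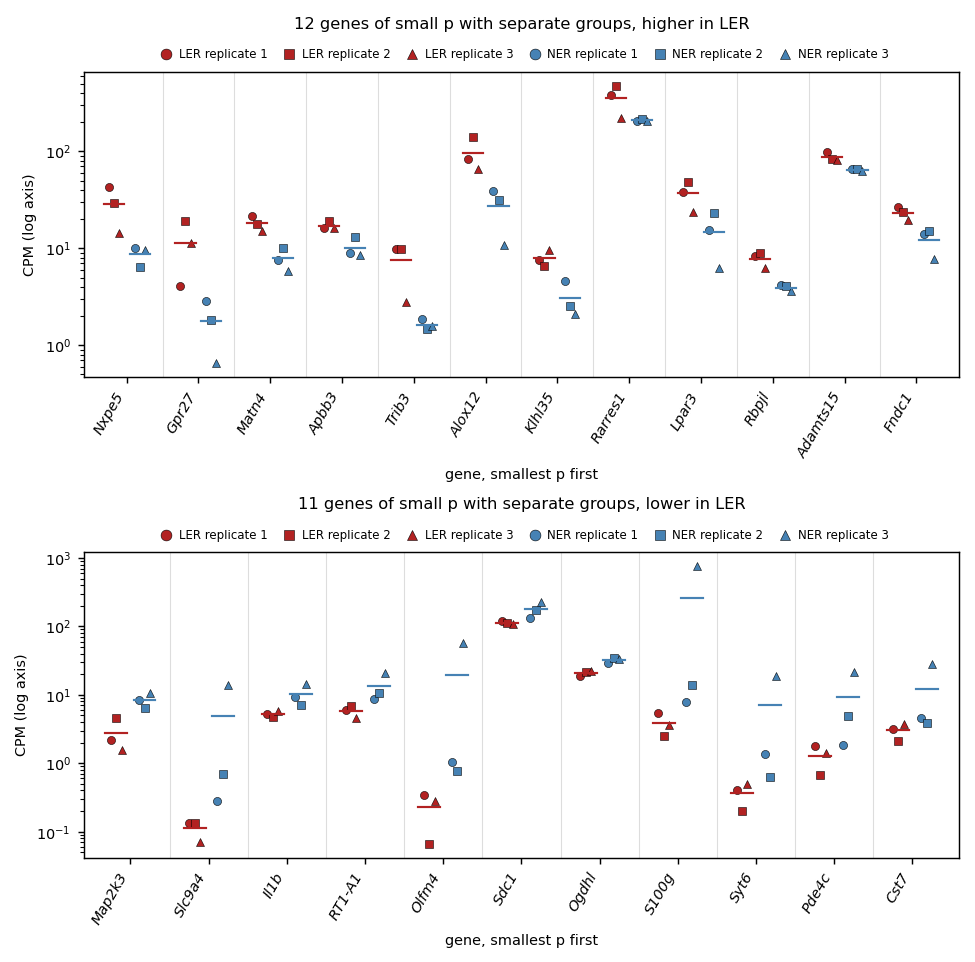
CPM on a log axis of 12 higher and 11 lower genes named for the smallest unadjusted p and no overlap, 1 point per library, LER left of NER. NER replicate 3 lies far above every other library for S100g, Olfm4, Slc9a4 and Syt6, and near the other NER libraries for Map2k3 and Ogdhl.

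Hormone-responsive uterine genes gave medians that moved with NER replicate 3. Of 25 tested oestrogen-responsive genes, 7 were higher and 18 lower, 0 were called, and the median log2 fold change was -0.48, and -0.05 without that library. For 27 progesterone-responsive genes the median was 0.15, and -0.03 without it. Sox17, a transcription factor of uterine epithelium and vessels, had 329, 325 and 187 CPM in LER, against 154, 216 and 126 CPM in NER (0.76 ± 0.30, unadjusted p = 0.0313, and 0.60 without NER replicate 3). LER replicates 1 and 2 were the 2 highest libraries for Sox17, and LER replicate 3 lay under NER replicate 2. Gata2, which regulates the progesterone receptor in mouse uterus, did not overlap, with 156, 162 and 158 CPM in LER, against 106, 143 and 112 CPM in NER (0.40 ± 0.19, and 0.35). Ptch1, the Hedgehog receptor in stroma, overlapped, with 137, 186 and 115 CPM in LER, against 121, 133 and 34.7 CPM in NER (0.60 ± 0.46).

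Genes of embryo attachment and decidualization were balanced between directions. Of 31 attachment and receptivity genes, 15 were higher and 16 lower, with a median of -0.06. Of the 30 with a mean of at least 2 CPM, 2 higher and 1 lower had groups that did not overlap, against 6.82% of all genes in both directions. Of 24 decidualization genes, 12 were higher and 12 lower, with a median of 0.02. Msx1, a homeobox factor of the receptive uterus, had 161, 179 and 114 CPM in LER, against 116, 151 and 66.5 CPM in NER (0.44 ± 0.30), with overlap. Aoc1, diamine oxidase, which breaks down histamine and putrescine, had 7.67, 6.5 and 3.7 CPM in LER, against 8.78, 11.8 and 7.82 CPM in NER (-0.67 ± 0.63, and -0.79 without NER replicate 3). For Aoc1 each LER library lay below each NER library, the closest pair being LER replicate 1 and NER replicate 3. Secretory products of glands and lumen had a median of -0.85 over 13 genes, and 0.22 without NER replicate 3. Muc4, a surface mucin, had 6.31, 10.2 and 5.69 CPM in LER, against 3.45, 5.01 and 197 CPM in NER, and without NER replicate 3 its log2 fold change of -3.20 ± 1.97 was 0.81, with the opposite sign.

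Growth factor, matrix and signalling genes differed by small folds. Igf2, a fetal and uterine growth factor, had 32.8, 26.3 and 30.1 CPM in LER, against 20.9, 18.5 and 14 CPM in NER, with a clear gap between the groups (0.74 ± 0.31, unadjusted p = 0.0383, and 0.59 without NER replicate 3). Of 16 insulin-like growth factor genes, 13 were higher in LER, with a median of 0.13, and 0.07 without that library. Col4a4, a basement membrane collagen IV chain, had 22.1, 21.7 and 21.4 CPM in LER, against 16.3, 15.4 and 16.9 CPM in NER. The LER libraries were within 1 CPM of each other and all above NER (0.42 ± 0.30, unadjusted p = 0.186, and 0.46). Sfrp2, a secreted Wnt inhibitor of stroma, had 103, 109 and 109 CPM in LER, against 94.6, 78.5 and 18.6 CPM in NER (0.74 ± 0.52, and 0.31), and the Wnt receptor Fzd6 had 37.9, 48.9 and 44.3 CPM in LER, against 55.3, 49.9 and 69 CPM in NER (-0.41 ± 0.29). Neither of these overlapped. Tnc, the matrix glycoprotein tenascin C, overlapped, with 98.5, 184 and 81.3 CPM in LER, against 96, 71 and 15.9 CPM in NER (0.99 ± 0.83). The median was -0.08 over 31 genes of interstitial matrix, 0.15 over 17 of basement membrane, 0.09 over 28 of vessels and 0.06 over 30 of Wnt, BMP and Hedgehog signalling. Without NER replicate 3 these medians were -0.12, 0.07, -0.02 and -0.02, so the sign turned for vessels and for the signalling list.

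Metabolic lists of nuclear genes stayed near the median of all genes once NER replicate 3 was left out. Genes of cholesterol synthesis were lower in LER at all 24 members tested, with a median of -0.51, and -0.03 without that library. They summed to 1601, 1409 and 1059.5 CPM in LER, against 1321, 1439 and 3501 CPM in NER, where replicate 3 alone was high. Glycolysis and hypoxia genes had a median of -0.22, and 0.06 without it. Nuclear genes of oxidative phosphorylation had a median of 0.06 and cytosolic ribosomal protein genes of 0.04. Cox5b, a subunit of cytochrome c oxidase, had 75.9, 82 and 76.2 CPM in LER, against 45.3, 59.1 and 69.1 CPM in NER (0.43 ± 0.28, and 0.58 without NER replicate 3), without overlap. Mitochondrially encoded genes summed to 20653, 32596 and 37561 CPM in LER, against 49769, 31764 and 27856 CPM in NER. All 12 tested members had a lower mean in LER, with a median of -0.28. It was -0.46 without NER replicate 3, -0.04 without LER replicate 1 and 0.08 without NER replicate 1. The libraries overlapped, LER replicate 1 being the lowest and NER replicate 1 the highest.

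Among all lists, NF-kB cytokines and chemokines and natural killer cell markers had the most non-overlapping members with a mean of at least 2 CPM. No other immune list had more than 1, and the T cell, class II histocompatibility and complement lists had 0. Of 19 tested NF-kB cytokines and chemokines, 18 were lower in LER. The list's median was -0.68, and it was -0.35 without NER replicate 3. Of the 16 with a mean of at least 2 CPM, 7 were lower without overlap, against 3.31% of all genes. All 14 tested natural killer cell markers were lower in LER, with a median of -0.94, and -0.34 without that library. Of the 9 with a mean of at least 2 CPM, 4 were lower without overlap, against 3.31% of all genes. Summed natural killer cell markers were 77.8, 71.8 and 68.2 CPM in LER, against 86.6, 100.2 and 269.7 CPM in NER. Ncr1 lay under 2 CPM on average, with 0.747, 1 and 0.427 CPM in LER, against 2.28, 2.03 and 1.96 CPM in NER. The NER libraries were close to each other and all above LER, so NER replicate 3 did not stand out for this gene (-1.51 ± 0.47, unadjusted p = 0.0106, and -1.56 without that library). No member of either list was called. The mean over the 6 libraries counts NER replicate 3, which had the highest sum of both lists. A member could therefore pass the 2 CPM minimum through that library. Levels of the epithelium, macrophage and T cell markers moved with NER replicate 3 as well, and their part in these differences was not tested.

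Macrophage, dendritic cell and T cell markers followed NER replicate 3, but the mast cell list did not. Relative to the 6-library mean, the median of 5 tested mast cell markers was lowest in NER replicate 3, at -1.35 log2 units. Of these, 2 had a mean of at least 2 CPM. All listed mast cell markers summed to 186, 186 and 188 CPM in LER, against 138, 175 and 189 CPM in NER. For 9 neutrophil and eosinophil markers the median was 0.52 in LER replicate 1 and 0.55 in NER replicate 3. By its sum that list was highest in NER replicate 3, with 98.6, 46.5 and 117 CPM in LER, against 55.1, 52 and 294 CPM in NER. Macrophage and dendritic cell markers had a median of -0.68 over 18 genes, and 0.24 without NER replicate 3, and summed to 1172, 885 and 1263 CPM in LER, against 1014, 883 and 4529.6 CPM in NER. T cell markers summed to 127, 96.5 and 166 CPM in LER, against 94.9, 111 and 279 CPM in NER, with a median log2 fold change of -0.64, and 0.01 without that library. Class II histocompatibility genes had -0.92 and 0.15. Interferon-stimulated genes had -0.41 and -0.08, and complement and coagulation genes -0.16 and 0.02. Cd163, a scavenger receptor of tissue macrophages, had 32.4, 10.6 and 17 CPM in LER, against 10.8, 5.96 and 5.72 CPM in NER (1.42 ± 0.52, unadjusted p = 0.0234), and LER replicate 2 lay just under NER replicate 1. Leaving out NER replicate 3 gave 1.25 on the log2 scale, and leaving out LER replicate 1 gave 0.88. Csf3r, the receptor of granulocyte colony-stimulating factor, had 4.82, 5.62 and 5.33 CPM in LER, against 5.67, 9.25 and 29.8 CPM in NER (-1.499 ± 0.64, and -0.50 without NER replicate 3).

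Over all 47 gene lists, 11 had a median log2 fold change of at least 0.5 in size. Without NER replicate 3 there were 2, the adipocyte and erythroid lists, and without LER replicate 1 as well there was 1, the B and plasma cell markers, with 6 genes tested and a median of -0.55. Adipocyte markers had a median of 2.49 over 11 genes, and -0.27 without LER replicate 1. Cidec, a lipid droplet protein of fat cells, had 61.7, 2.54 and 1.07 CPM in LER, against 5.46, 1.27 and 0.29 CPM in NER. Erythroid genes had a median of 1.31, and 0.30 without LER replicate 1. Alas2, the erythroid enzyme of haem synthesis, had 11.7, 3.28 and 2.84 CPM in LER, against 1.66, 1.52 and 2.39 CPM in NER, and was higher in LER also without LER replicate 1 (0.72). S100b, a protein of Schwann cells and fat cells, had 79.1, 1.27 and 0.853 CPM in LER, against 9.05, 1.27 and 2.68 CPM in NER. Epithelium markers had a median of -0.68, and 0.46 without NER replicate 3, and Krt19, keratin 19 of uterine epithelium, had 17.8, 14.2 and 9.67 CPM in LER, against 4.08, 10.6 and 393 CPM in NER. For Krt19 the sign turned with that library, the log2 fold change being -3.29 ± 1.58 with it and 0.91 without it. Endometrial stroma, smooth muscle and endothelium markers had medians of 0.07, 0.03 and 0.08.

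**Figure D5:**
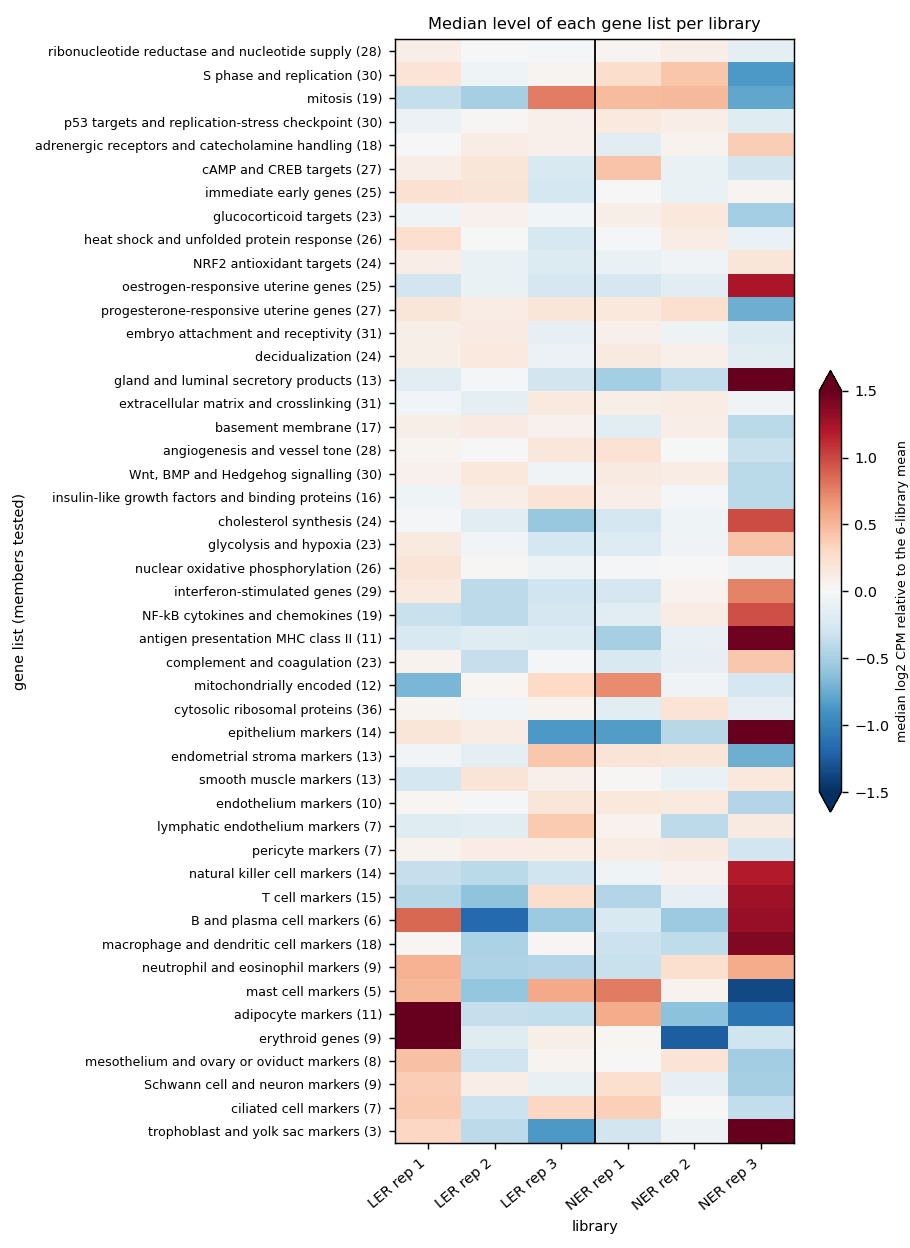
Median level of each gene list in each library, as log2 CPM relative to the mean of the 6 libraries, with the LER libraries left of the NER libraries and colours clipped at 1.5 in either direction. NER replicate 3 holds most of the strong colours, and LER replicate 1 stands out in the adipocyte and erythroid lists.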

How the data were processed

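Poly-A selected RNA was sequenced from 9 rat uterus libraries, 3 each in LER, NER and a further drug-treated group. Per the file headers, the authors deposited read counts per gene as whole numbers, and FPKM beside them. The deposited FPKM were used only to compare levels between adrenergic genes. The deposited comparison columns were not used. Aligner, counter, strand setting and genome build: not given in the sources used here. Reads of overlapping or antisense genes may therefore be mixed. Rows without a symbol numbered 8 of 22250.

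Tests on counts were run with edgeR 4.0.16 under R 4.3.3: filterByExpr, TMM scaling, and the robust quasi-likelihood test for LER minus NER over all 9 libraries, which share 1 estimate of the spread, with Benjamini-Hochberg adjustment over 14232 genes and a threshold of 0.05. The common biological coefficient of variation was 0.441. Log2 fold changes are given with the SE, with a prior count of 2 in log2 CPM. Groups that do not overlap were counted over genes with a mean of at least 2 CPM. The procedure was also run on simulated counts with planted changes. How many of those were called is not reported here, so the power to call a change is not stated. No 2 libraries agreed within sampling noise, with a chi-square per degree of freedom of at least 17.9 in each pair. The labels hold neither batches nor dates.

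The 47 gene lists held 1000 entries, of which 953 matched by symbol, 1 by an older RefSeq symbol and 46 not at all, and 873 entries were tested. The members, lists and tests were chosen with earlier results of these data known. Named genes were, in each direction, 12 genes without overlap that had the smallest p, up to 3 per list with the smallest p, members fixed with the lists, and genes called by DESeq2 1.42.0. A few genes that the rule names are not reported here. Promoters came from RefSeq (GRCr8). Alternatives were DESeq2 size factors, upper-quartile scaling, no filter, a fit of the 6 libraries, a replicate block, DESeq2, an adjusted p under 0.1, other mean minimums and leaving out libraries.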

Additional observations from a re-analysis of the deposited data

How the results depend on the processing

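Every edgeR fit called 0 genes, including an adjusted p under 0.1, the fit of the 6 libraries and each leave-out, and DESeq2 called 2. Genes at an unadjusted p under 0.05 numbered 124, against 189 with no filter, 256 in the fit of the 6 libraries and 257 by DESeq2, and 26 to 324 with libraries left out. They numbered 38 without NER replicate 3 and 26 without both NER replicate 3 and LER replicate 1. With 2 libraries left in a group, 701 to 1445 genes were higher and 709 to 1343 lower without overlap, where smaller groups overlap less often by construction. Lists with a median of at least 0.5 in size numbered 11, against 2 without NER replicate 3, 1 without both and 11 to 15 without each other library. With the replicate number as a block, 0 genes were called and 157 had an unadjusted p under 0.05, 86 higher and 71 lower, against 39 and 85 without it. Deviations from the group means correlated at -0.095, -0.019 and -0.043 in same-numbered LER and NER libraries, and at -0.043 to 0.107 in other pairs. Same-numbered libraries thus showed no positive correlation. Deviations balance within a group, so the check cannot exclude pairing. Of 78 genes followed by name, 56 kept their sign throughout. The sign turned at small values under other settings for Pcna (0.048 with the block), Mcm6 (0.00703 with upper-quartile scaling, 0.00894 with no filter, 0.00993 with the block) and Adra2b (-0.0027 with the block). With libraries left out, the log2 fold changes that turned ranged as follows: Adra1a -0.044 to 0.48, Adra2a -0.14 to 0.71, Adra2b -0.36 to 0.37, Cdkn1a -1.57 to 0.16, Cidec -0.89 to 4.78, Dusp1 -0.30 to 0.17, Fkbp5 -0.19 to 0.62, Krt19 -3.86 to 0.91, Maoa -0.055 to 0.28, Maob -0.43 to 0.44, Mcm2 -0.17 to 0.47, Mcm5 -0.43 to 0.32, Mcm6 -0.48 to 0.27, Mcm7 -0.016 to 0.64, Muc4 -3.76 to 0.91, Pcna -0.42 to 0.19, Ppargc1a -0.18 to 0.99, Rrm1 -0.33 to 0.047, Rrm2 -0.55 to 0.20, Rrm2b -0.30 to 0.23, S100b -2.27 to 3.78 and Slc6a2 -0.23 to 0.74. Adipocyte and erythroid medians depended on LER replicate 1. With 3 libraries per group and this spread, small folds could not be told from the spread between libraries.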
